A study of Thlaspi arvense with 6 samples.

Results

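The enzymes of phenylpropanoid, flavonoid and lignin synthesis were followed through nectary development in pennycress (Thlaspi arvense). Contigs, the assembled transcript pieces to which reads were mapped, were summed per locus of the pennycress draft genome, and each locus took the name of the Arabidopsis match of its most abundant contig. A locus was kept when that name contained ammonia-lyase, cinnam, chalcone, flavon, coumarate, caffe, laccase, dirigent, anthocyan or O-methyltransferase, unknown proteins and cytochromes P450 being left out. These words gave 24 loci of 12335, built from 39 contigs and matched to 22 different Arabidopsis genes. Of the words, 3 (caffe, laccase and anthocyan) found no contig among those deposited. Each deposited contig reached a value of at least 101 in some sample, so weaker transcripts could not be found. The rule read names, and the levels only as a mean over all 6 samples to pick the contig that names a locus, so differences between the stages played no part in it.

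Hand-dissected nectaries of cultivar MN108 gave 6 samples, 3 of mature and 3 of immature nectaries. Mature nectaries secreted nectar and came from flowers equivalent to Arabidopsis stages 14 to 15, while immature nectaries had not begun to secrete and came from flowers equivalent to stages 11 to 12. All nectaries were taken 4 to 8 h after dawn from the primary inflorescences of plants about 40 days old, grown with 16 h of light and 8 h of dark. Each sample was a pool of many nectaries, and the 3 pools of a stage came from different sets of plants, so the spread within a stage is a spread between pools. In samples of whole nectaries, fewer cells of a type cannot be told apart from less RNA per cell.

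Phenylpropanoid synthesis begins when phenylalanine ammonia-lyase (PAL) removes ammonia from phenylalanine to give cinnamate. Cinnamate 4-hydroxylase (C4H) and 4-coumarate:CoA ligase (4CL) then make p-coumaroyl-CoA, at which the pathway divides. The branch through HCT leads to the monolignols, the building blocks of lignin and lignans, and the branch through chalcone synthase (CHS) leads to the flavonoids, which in flowers act as pigments, antioxidants and protectants against ultraviolet light.

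The values are normalised counts, that is reads per contig which the authors scaled by the upper quartile of each library and rounded. The length of each contig is not known here, so a level of one locus against another says nothing of their transcript numbers, and tests compare the stages only. A locus was called higher or lower in mature nectaries when limma, fitted to log2(normalised count + 1), gave a Benjamini-Hochberg adjusted p under 0.05. The fit took in 11780 loci, those reaching a mean of 100 or more in one stage or both. Fold changes are ratios of the mature mean to the immature mean. Errors of means are SD over 3 pools and errors of log2 fold changes are standard errors. For a single locus, an exact permutation test of 3 against 3 pools cannot give a two-sided p below 0.1, so no such test was used.

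All 24 loci passed the filter on low values, 16 of them in both stages, 1 through its mature and 7 through their immature values alone, and a locus that passed through one stage alone had to differ in some degree. Of the 24, 12 were higher in mature nectaries, against 28.4% of all loci tested, 11 were lower, against 35.9%, and 1 was not called. In either direction, 23 loci were called, against 64.3% of all loci tested. A change of more than 2-fold was added as a second rule, and 9 loci were then higher (13.8% of all loci tested) and 10 lower (23.0%). The stages did not overlap in 23 of the 24 loci, a property shared by 70.1% of all loci tested. The median log2 fold change was 0.23, ranging from -6.64 to 2.85, beside a median of -0.09 over all loci. Without regard to sign, the 24 loci had a median of 1.91 and all loci tested a median of 0.72 on the log2 scale.

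**Figure D1:**
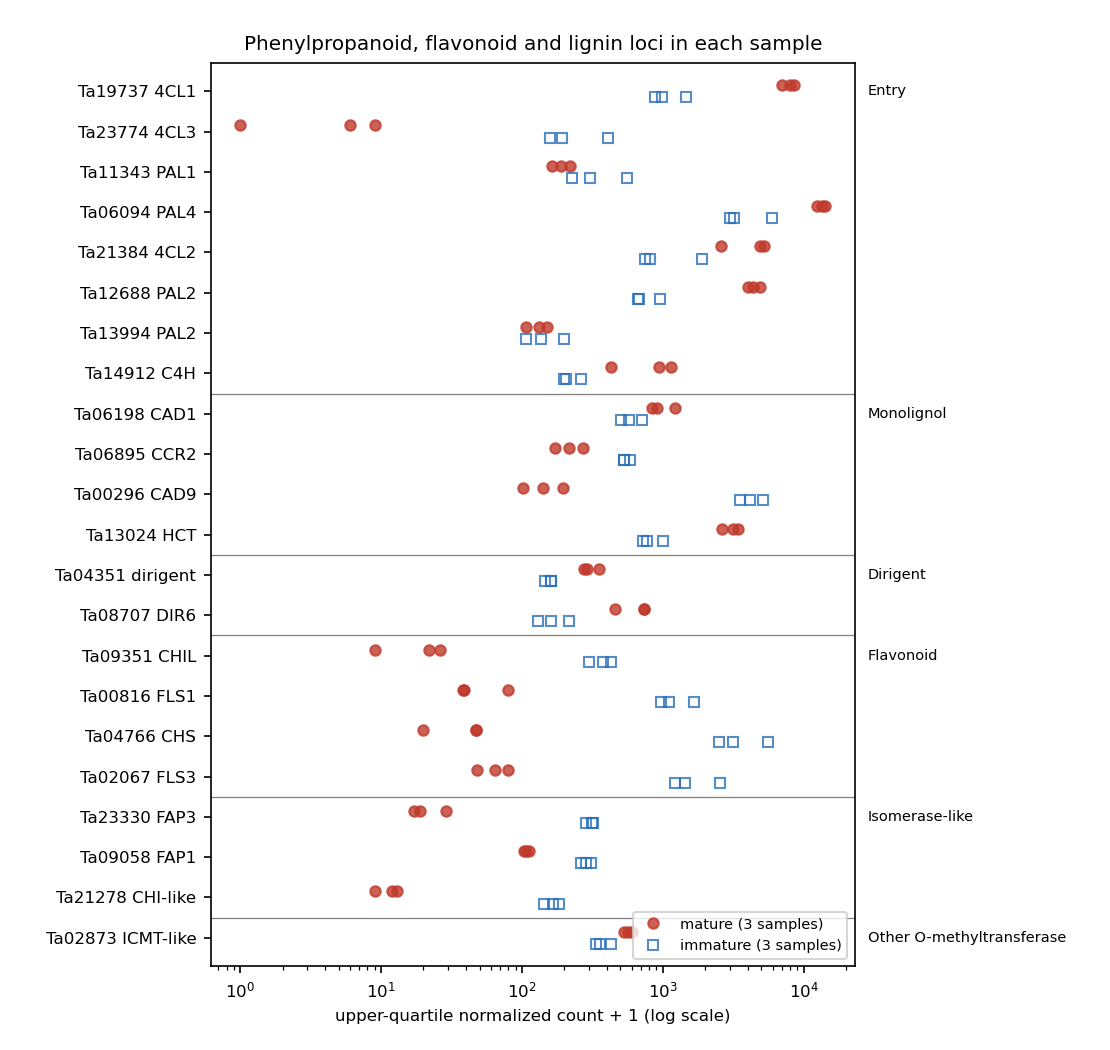
Normalised count (plus 1, log axis) of 22 loci in each sample, with mature samples as filled circles and immature samples as open squares, grouped by role. The circles and squares of 21 loci do not overlap, and the exception is Ta13994, the second PAL2 locus.

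Direction differed between groups of loci, and the entry and monolignol groups held loci of both directions. At the entry, 4 of 7 PAL and 4CL loci and the C4H locus were higher in mature nectaries. So were 4 of 6 monolignol loci and both dirigent loci, beside 28.4% of all loci tested. All 4 flavonoid loci and all 3 chalcone isomerase-like loci were lower, beside 35.9% of all loci tested. Of these, all but Ta09058 passed the filter through their immature values alone, as did Ta23774 of the entry group. For those loci the direction of the means was set by the filter. The plot by sample has circles to the right of squares at most entry loci and at the dirigent loci. At the flavonoid and isomerase-like loci the circles lie to the left. The monolignol loci it shows lie on either side, and its last row, Ta02873 (AT5G59500), has circles to the right. Against this order, Ta23774 and Ta11343 of the entry group and Ta06895 and Ta00296 of the monolignol group were lower.

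The libraries differed in composition, which bears on every value below. From the spacing of their low values, the 6 libraries held about 11700000 to 16900000 mapped reads, of which ribosomal RNA took 27.0% to 62.6% in mature and 12.4% to 41.8% in immature samples. Immature sample 3, the one with 12.4%, had the highest immature value in 17 of the 24 loci (70.8%), beside 51.3% of all loci tested. After rescaling to the total without ribosomal RNA and organelles, this held for 62.5% of the 24 loci, beside 28.4% of all loci tested. Nectary markers were present throughout. All 5 listed nectary genes had a locus, 4 higher and 1 lower in mature nectaries, and their summed normalised count was 402139 to 452327 in mature and 150263 to 261637 in immature samples. The lower one, a match of AT1G74820 (Ta01412), had 33371, 19771 and 24558 in mature against 108224, 81358 and 146334 in immature samples. All 10 pollen loci were higher in mature nectaries, with sums of 69014, 8389 and 23117 in mature samples 1, 2 and 3 against 404 to 1099 in immature samples. Highest over lowest mature sample, this sum spanned 8.23-fold. The same ratio was 1.14-fold to 2.64-fold in the 12 phenylpropanoid loci that were higher in mature nectaries, with mature sample 1 the highest in 4 of them. When mature sample 1, mature sample 2 (the one with 62.6% ribosomal RNA) or immature sample 3 was left out, 12 loci were still higher and 10 lower, the PAL1 match being the call lost each time. Of the 9 listed genes of xylem with secondary walls, none had a locus, and 1 of the 14 listed tapetum genes had one (Ta17542, at 84 to 121 in mature and 152 to 206 in immature samples). Contigs below 101 in every sample are missing from the deposited values, so a gene without a locus may still be expressed at a low level. Of the 4 listed phloem genes, 3 had a locus, and 2 of these loci were lower in mature nectaries. The 3 loci had sums of 131 to 181 in mature and 352 to 761 in immature samples. Of the 4 listed stomatal genes, 2 had a locus, both lower, with sums of 183 to 260 in mature and 564 to 597 in immature samples. Most of these sums came from Ta04908 (AT3G26744), with means of 138 in mature and 428 in immature nectaries. The part of pollen, phloem or stomatal cells in the results below was not tested.

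At the entry, PAL was represented by 4 loci, and their summed normalised count was 18073 ± 1125 in mature and 5306 ± 1946 in immature nectaries, a 3.41-fold difference. The locus matching PAL4 (Ta06094, AT3G10340) had 14236, 12411 and 13381 in mature samples against 3003, 3195 and 5908 in immature samples. Even the highest immature sample lay well below the lowest mature one. The mature mean of 13343 ± 913 was 3.31-fold the immature mean of 4035 ± 1625, and the log2 fold change was 1.79 ± 0.27 (limma adjusted p = 0.000601).

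A locus matching PAL2 (Ta12688, AT3G53260) was higher as well, with 4339, 4034 and 4863 in mature samples against 662, 676 and 954 in immature samples. The pools of each stage lay close together and far from those of the other stage. The means were 4412 ± 419 in mature and 764 ± 165 in immature nectaries, 5.77-fold apart, with a log2 fold change of 2.54 ± 0.18 (limma adjusted p = 1.45e-05). PAL2 had a second locus (Ta13994) with 106, 150 and 131 in mature samples against 105, 198 and 135 in immature samples. Here the stages overlapped, and this was the one locus not called (log2 fold change -0.14, 95% interval -0.73 to 0.44, limma adjusted p = 0.641).

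The locus matching PAL1 (Ta11343, AT2G37040), one of the major PAL genes of Arabidopsis, went the other way. It had 163, 187 and 219 in mature samples against 302, 227 and 552 in immature samples. The stages did not overlap, but the highest mature and the lowest immature sample were only a few counts apart. The log2 fold change was -0.83 ± 0.30 (limma adjusted p = 0.0405), a call lost when any one sample other than immature 2 was left out, with adjusted p of 0.0583 to 0.0917. PAL genes are alike in sequence, and reads were assigned to contigs by sequence similarity, so the division of reads between the PAL loci is less certain than their sum.

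C4H, the hydroxylase that follows PAL, was represented by Ta14912 (AT2G30490). It had 430, 939 and 1137 in mature samples against 197, 203 and 262 in immature samples. Mature sample 1 was the lowest of its stage and still above all immature samples. The means were 835 ± 365 and 221 ± 35.9 in mature and immature nectaries, a 3.79-fold difference (log2 fold change 1.81 ± 0.34, limma adjusted p = 0.0018).

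4CL activates the acid to its CoA ester, and its 3 loci divided by the branch they serve in Arabidopsis. Ta19737, matching 4CL1 (AT1G51680), had 6976, 8569 and 7969 in mature samples against 878, 985 and 1452 in immature samples. This was the largest increase of the 24 locus sums, at 7.09-fold between means of 7838 ± 805 in mature and 1105 ± 305 in immature nectaries (log2 fold change 2.85 ± 0.21, limma adjusted p = 1.74e-05). That rank depended on contigs of other genes, described with the contigs below. Ta21384, matching 4CL2 (AT3G21240), had 4863, 2600 and 5188 in mature samples against 806, 744 and 1880 in immature samples. Again all mature samples were above all immature ones, 3.69-fold on average (log2 fold change 1.95 ± 0.40, limma adjusted p = 0.00287). In Arabidopsis, 4CL1 and 4CL2 act mainly in the lignin branch.

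4CL3 acts mainly in the flavonoid branch of Arabidopsis, and its match Ta23774 (AT1G65060) was almost lost in mature nectaries. It had 8, 0 and 5 in mature samples against 190, 157 and 404 in immature samples. One mature sample was at 0, and the other two were at a few counts, so the size of the difference is set by very low values. The ratio of means was 57.8-fold lower in mature nectaries and the log2 fold change -5.93 ± 0.83 (limma adjusted p = 0.000424). Summed over its 3 loci, 4CL stood at 12059 ± 1013 in mature and 2499 ± 1072 in immature nectaries, 4.83-fold higher.

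**Figure D2:**
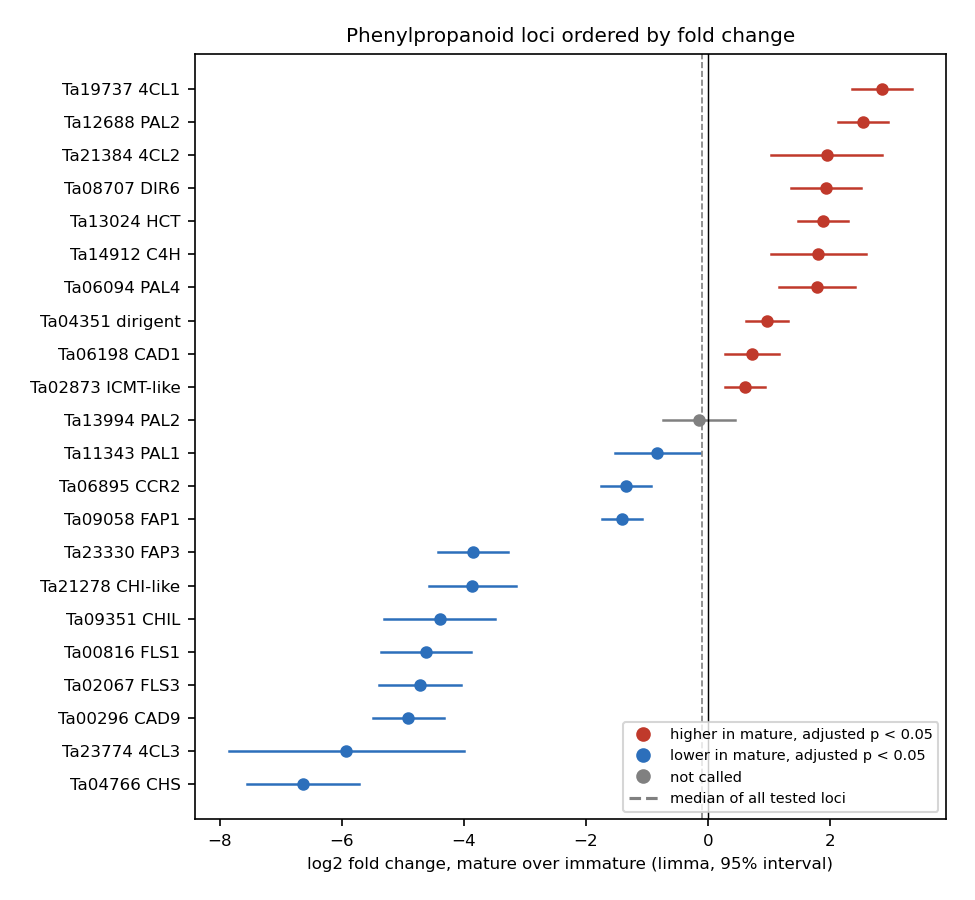
Log2 fold change of mature over immature nectaries for 22 loci (points) with its 95% interval from limma (lines), ordered by size. The values run from 2.85 at the 4CL1 match to -6.64 at the CHS match, and only the interval of Ta13994 reaches across 0.

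Of the 6 loci in the monolignol group, 4 were higher and 2 lower, with a median log2 fold change of 0.95. Over all loci tested, 28.4% were higher and 35.9% lower. HCT, the acyltransferase that moves p-coumaroyl from CoA to shikimate and so opens the monolignol branch, was represented by Ta13024 (AT5G48930). It had 2628, 3415 and 3144 in mature samples against 726, 768 and 995 in immature samples. The stages were far apart, and the means of 3062 ± 400 in mature and 830 ± 145 in immature nectaries differed 3.69-fold (log2 fold change 1.89 ± 0.18, limma adjusted p = 5.03e-05).

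Cinnamoyl-CoA reductase (CCR) and cinnamyl alcohol dehydrogenase (CAD) carry out the last 2 reductions to monolignols. The CCR locus found, Ta06895, matched CCR2 (AT1G80820), a gene known in Arabidopsis for its induction by pathogens. It had 171, 216 and 270 in mature samples against 584, 525 and 532 in immature samples. All mature samples were below all immature ones, 2.50-fold on average (log2 fold change -1.34 ± 0.18, limma adjusted p = 0.000334).

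CAD-family loci moved in opposite directions. Ta00296, matching CAD9 (AT4G39330), had 193, 140 and 100 in mature samples against 4121, 3532 and 5151 in immature samples. It was thus 29.6-fold lower in mature nectaries (144 ± 46.7 against 4268 ± 819 in immature, log2 fold change -4.91 ± 0.25, limma adjusted p = 4.58e-06), a difference of the size seen in the flavonoid loci. Ta06198, matching CAD1 (AT1G72680), had 1215, 832 and 908 in mature samples against 570, 501 and 705 in immature samples. The mature samples were all higher, by 1.66-fold on average (log2 fold change 0.73 ± 0.19, limma adjusted p = 0.0105).

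Dirigent proteins bring monolignol radicals together in a defined orientation and give lignans, and the Arabidopsis match of Ta08707, DIR6 (AT4G23690), is known to direct pinoresinol formation. Ta08707 had 459, 739 and 732 in mature samples against 128, 213 and 160 in immature samples. Mature samples were 3.85-fold higher with no overlap (log2 fold change 1.94 ± 0.25, limma adjusted p = 0.000255). The other dirigent locus, Ta04351 (AT3G24020), had 351, 274 and 286 in mature samples against 159, 144 and 160 in immature samples. It rose 1.97-fold (log2 fold change 0.96 ± 0.15, limma adjusted p = 0.000691).

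The flavonoid group held 4 loci, all lower in mature nectaries, with a median log2 fold change of -4.67. All 4 had passed the filter through their immature values alone. CHS, which condenses p-coumaroyl-CoA with malonyl-CoA and commits carbon to flavonoids, was represented by Ta04766 (AT5G13930). It had 46, 19 and 46 in mature samples against 3122, 2484 and 5602 in immature samples. All mature samples lay far below all immature samples. At 37.0 ± 15.6 in mature and 3736 ± 1647 in immature nectaries the difference was 101-fold, the largest decrease of the 24 loci (log2 fold change -6.64 ± 0.40, limma adjusted p = 7.37e-06).

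CHIL is a chalcone isomerase-like protein that in Arabidopsis raises the output of CHS without being an isomerase itself. Its match Ta09351 (AT5G05270) had 25, 8 and 21 in mature samples against 429, 300 and 372 in immature samples. It was 20.4-fold lower (log2 fold change -4.40 ± 0.40, limma adjusted p = 4.39e-05).

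Flavonol synthase (FLS) oxidises dihydroflavonols to flavonols such as quercetin and kaempferol. Ta00816, matching FLS1 (AT5G08640), the main flavonol synthase of Arabidopsis, had 38, 37 and 79 in mature samples against 1103, 962 and 1661 in immature samples. The difference was 24.2-fold (log2 fold change -4.62 ± 0.32, limma adjusted p = 1.35e-05). Ta02067, matching the related FLS3 (AT5G63590), had 78, 47 and 63 in mature samples against 1440, 1218 and 2527 in immature samples. It was 27.6-fold lower (log2 fold change -4.72 ± 0.29, limma adjusted p = 8.4e-06), and in both FLS loci immature sample 3 was the highest of all samples.

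A further 3 loci carry the chalcone isomerase name but lie outside the core pathway. FAP1 and FAP3 are plastid proteins of the chalcone isomerase fold that bind fatty acids in Arabidopsis. The FAP3 match Ta23330 (AT1G53520) had 28, 16 and 18 in mature samples against 317, 282 and 313 in immature samples, 14.7-fold lower (log2 fold change -3.85 ± 0.25, limma adjusted p = 1.02e-05). The FAP1 match Ta09058 (AT3G63170) had 103, 105 and 111 in mature samples against 285, 260 and 310 in immature samples, 2.68-fold lower (log2 fold change -1.41 ± 0.14, limma adjusted p = 7.18e-05). The pools of a stage lay closer together in Ta09058 than in the mature stage of Ta23330, and the stages did not overlap in either. The third, Ta21278 (AT5G66230), had 11, 8 and 12 in mature samples against 164, 183 and 142 in immature samples, 15.8-fold lower (log2 fold change -3.86 ± 0.31, limma adjusted p = 2.58e-05).

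The last locus, Ta02873 (AT5G59500), was found through the word O-methyltransferase, but its match belongs to a family that methylates isoprenylated proteins and has no known part in phenylpropanoid synthesis. It had 530, 606 and 564 in mature samples against 335, 358 and 424 in immature samples, 1.52-fold higher (log2 fold change 0.61 ± 0.14, limma adjusted p = 0.00556). This call depended on a contig of another gene, described with the contigs below.

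**Figure D3:**
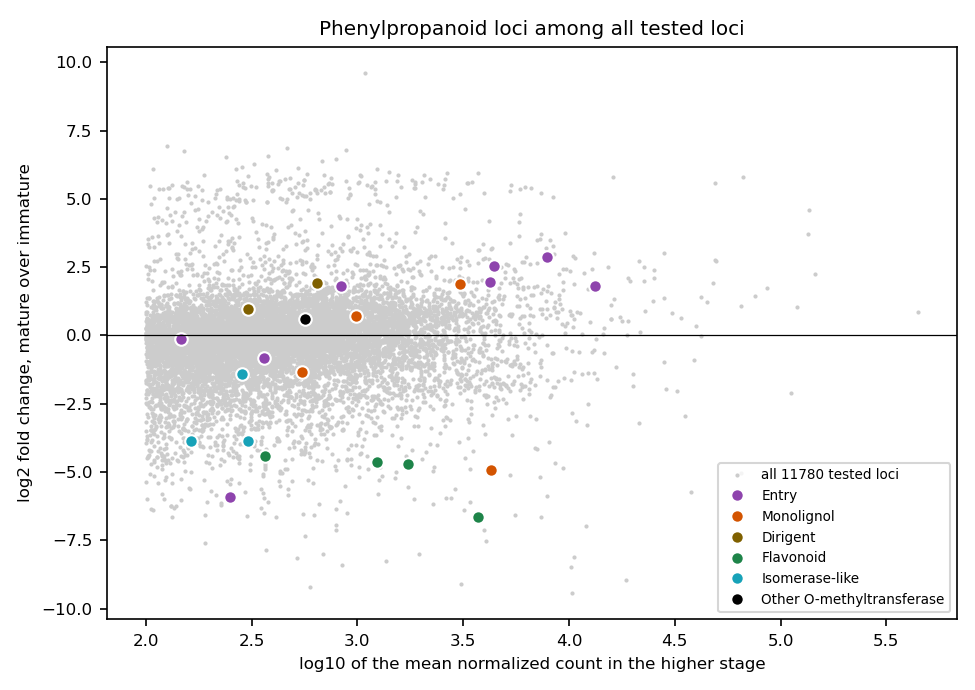
Log2 fold change of mature over immature nectaries against the log10 of the mean normalised count in the higher stage, for all 11780 loci tested (grey) and for 22 loci coloured by role. Of the 10 coloured loci above 0 that passed the test, 5 had a mature mean of at least 1000, and the 4 flavonoid points lie between -4.40 and -6.64.

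The plot of fold change against level sets these loci among all loci tested. The flavonoid loci lay near the lower edge of the cloud, as did the CAD9 match of the monolignol group and the 4CL3 match of the entry group. Over all loci tested, log2 fold changes ran from -9.43 to 9.61, so larger changes than those of CHS and 4CL1 occurred elsewhere.

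The rule left out cytochromes P450 and missed enzymes whose names give only a protein family. A wider list, which also took in upstream steps and regulators, was drawn up by Arabidopsis match and held 45 neighbouring loci. Of these, 42 passed the filter, and 22 were higher, 11 lower and 9 not called, beside the 28.4% and 35.9% of all loci tested that were called higher and lower. Upstream of PAL, the shikimate pathway makes chorismate, and arogenate dehydratases then lead to phenylalanine. Of 18 loci on these steps, 9 were higher, 4 lower and 5 not called, with a median log2 fold change of 0.51.

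The 4 called loci of this list with the smallest adjusted p were all higher. The match of ADT5 (Ta25570, AT5G22630), an arogenate dehydratase, had 1718, 1714 and 1562 in mature samples against 131, 225 and 181 in immature samples, 9.30-fold higher (log2 fold change 3.24 ± 0.20, limma adjusted p = 8.12e-06). Ta17294 (AT1G22410), a DAHP synthase at the first step of the shikimate pathway, had 30133, 19124 and 26091 in mature samples against 3855, 3966 and 6660 in immature samples, 5.20-fold higher (log2 fold change 2.40 ± 0.28, limma adjusted p = 0.00016). Chorismate synthase (Ta17152, AT1G48850) averaged 6048 ± 957 in mature and 1814 ± 496 in immature nectaries, 3.33-fold higher (limma adjusted p = 0.000234). One of 2 loci matching ADT2 (Ta14245, AT3G07630) was 3.15-fold higher (limma adjusted p = 0.000629). All 3 mature pools were above all 3 immature pools at each of these 4 loci. The 4 lower loci of the list differed by 1.42-fold to 2.55-fold.

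A further 6 loci stood for hydroxylases, their P450 reductases and an esterase. Of these, 3 were higher, 2 lower and 1 not called, beside 28.4% and 35.9% of all loci tested called higher and lower. One of the higher loci, named after its values were seen, was P450 reductase 2 (Ta09241, AT4G30210), an electron donor to the hydroxylases, with a log2 fold change of 0.61 (limma adjusted p = 0.0388, lost in 4 of the fits that left out a sample), and the one not called was P450 reductase 1 (Ta11642, AT4G24520, log2 fold change -0.12, limma adjusted p = 0.579). C3′H (Ta07286, AT2G40890), which hydroxylates the ester made by HCT, had 3925, 5738 and 4722 in mature samples against 774, 839 and 875 in immature samples, 5.78-fold higher (log2 fold change 2.51 ± 0.17, limma adjusted p = 1.21e-05). Caffeoyl shikimate esterase (CSE, Ta11059, AT1G52760), which releases caffeate, had 10123, 10771 and 9360 in mature samples against 2087, 1719 and 2099 in immature samples, 5.12-fold higher (log2 fold change 2.36 ± 0.16, limma adjusted p = 1.2e-05). CCoAOMT1 (Ta17633, AT4G34050), the methyltransferase that makes feruloyl-CoA, had 23102, 26861 and 34587 in mature samples against 2830, 3024 and 4781 in immature samples, 7.95-fold higher (log2 fold change 3.01 ± 0.26, limma adjusted p = 3.7e-05). At these loci, as at those of C4H and HCT, the stages did not overlap, and the PAL and 4CL steps were higher in their sums. CCoAOMT1 was one of 5 loci related to the chosen enzymes by family, of which 2 were higher and 3 lower. The lower ones were another methyltransferase of the CCoAOMT family (Ta10768, AT3G62000, 2.49-fold lower, limma adjusted p = 0.00109), the dehydrogenase match ELI3-2 (Ta00209, AT4G37990, 5.29-fold lower, limma adjusted p = 0.000829) and, named after its values were seen, a reductase-like locus (Ta17542, AT1G68540, 1.78-fold lower, limma adjusted p = 0.00773).

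Ferulate 5-hydroxylase (F5H, Ta00044, AT4G36220), which directs carbon to sinapyl units, was lower. It had 1942, 1157 and 1498 in mature samples against 2255, 2351 and 4314 in immature samples. The log2 fold change was -0.92 ± 0.29 (limma adjusted p = 0.0226), and the call was lost without mature 2, mature 3 or immature 3, at adjusted p of 0.0648, 0.0614 and 0.0532. Flavonoid 3′-hydroxylase (F3′H, Ta00742, AT5G07990), which makes the quercetin type of flavonoid, had 14, 8 and 12 in mature samples against 791, 590 and 1093 in immature samples. At 72.8-fold lower (log2 fold change -6.05 ± 0.29, limma adjusted p = 3.94e-06) it stood beside CHS in size. Like CHS, it passed the filter through its immature values alone.

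**Figure D4:**
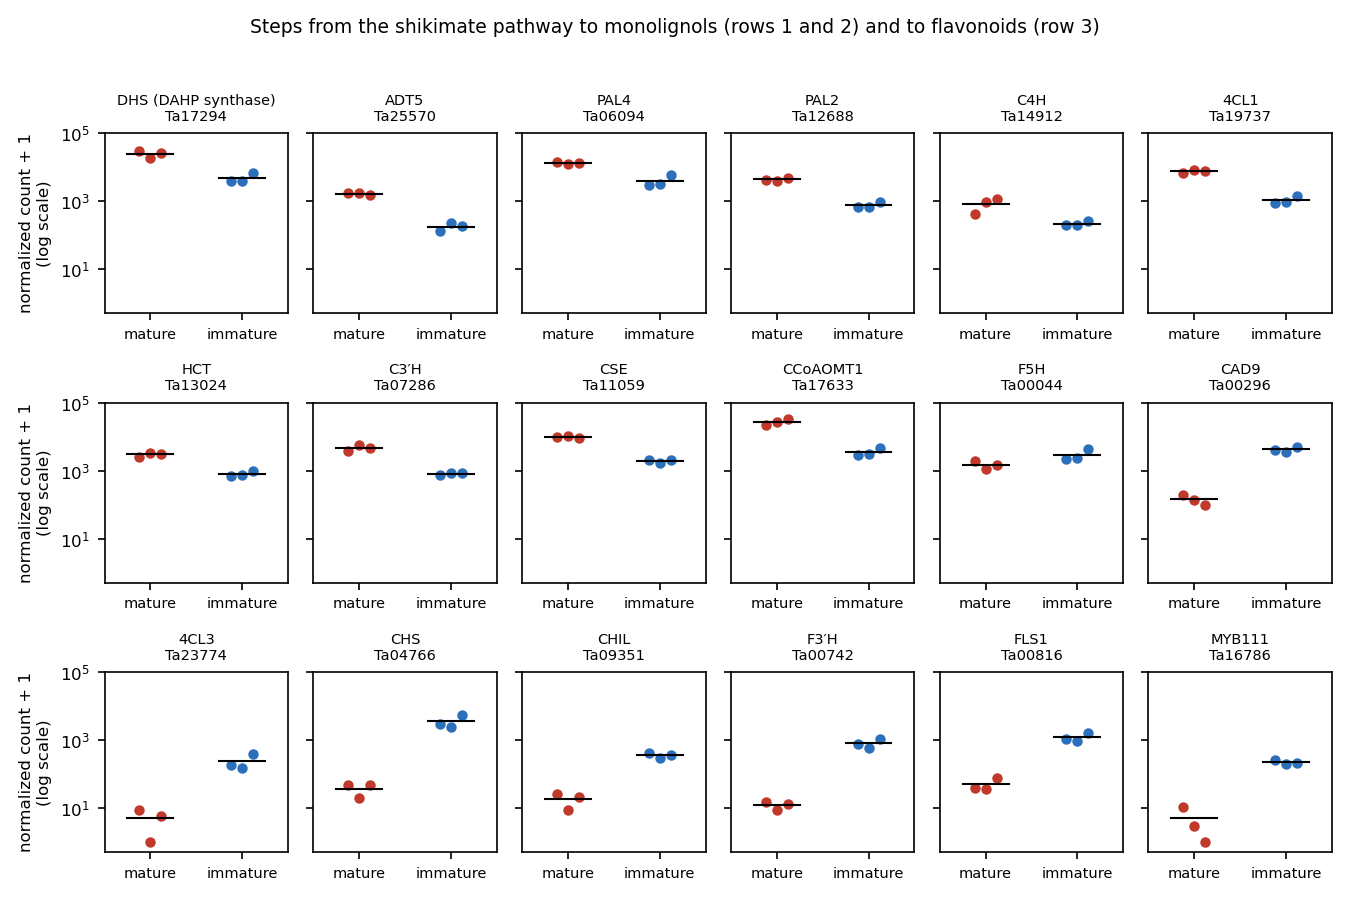
Normalised count (plus 1, log axis) in each mature (red) and immature (blue) sample for 18 loci, with the mean of each stage as a black line. The first 10 panels, from DHS to CCoAOMT1, are higher in mature nectaries, while F5H, CAD9 and the 6 panels of the bottom row (4CL3, CHS, CHIL, F3′H, FLS1 and the regulator MYB111) are lower.

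The panels of single steps set loci of both branches side by side. They do not show every locus of a step, and other loci of the monolignol branch, such as the CAD1 match, were higher. Regulators of the pathway were looked for by name, and 7 of the 28 listed genes had a locus that passed the filter, 5 higher and 2 lower. Over all loci tested, 28.4% were higher and 35.9% lower. The 2 lower regulators passed the filter through their immature values alone, which set the direction of their means. MYB111 (Ta16786, AT5G49330), an activator of CHS and FLS1 in Arabidopsis, had 10, 2 and 0 in mature samples against 264, 205 and 208 in immature samples. It was 56.4-fold lower, one mature sample being at 0 (log2 fold change -6.13 ± 0.82, limma adjusted p = 0.000318). MYB63 (Ta06830, AT1G79180), an activator of lignin genes in Arabidopsis, had 1317, 1591 and 1380 in mature samples against 501, 519 and 497 in immature samples. It was 2.83-fold higher (log2 fold change 1.49 ± 0.13, limma adjusted p = 3.8e-05). The phenylpropanoid repressors MYB7 (Ta18418) and MYB4 (Ta00367) were also higher, 2.95-fold (limma adjusted p = 7.07e-05) and 2.40-fold (limma adjusted p = 0.000429).

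Other steps of the wider list were sparsely represented. UGT78D2 (Ta04482, AT5G17050), which attaches glucose to flavonoids, had 528, 398 and 497 in mature samples against 78, 81 and 117 in immature samples. It was 5.16-fold higher (log2 fold change 2.37 ± 0.20, limma adjusted p = 3.23e-05), against the direction of the flavonoid loci, and one of its contigs matched the related UGT78D3. A glucosyltransferase of the monolignol-active UGT72E family (Ta16323, AT5G26310) had 6573, 3013 and 5325 in mature samples against 799, 785 and 2101 in immature samples, 4.05-fold higher (log2 fold change 2.11 ± 0.43, limma adjusted p = 0.00284). Of 2 tested kelch F-box loci of the kind that marks PAL for breakdown in Arabidopsis, Ta26627 (AT3G59940) was 2.47-fold higher (limma adjusted p = 0.00124), and the other was not called. Neither of the 2 tested loci for hydroxycinnamate esters was called. Another locus of that list, Ta18276 (AT5G41040), fell just under the filter and was not tested. It had 4, 4 and 9 in mature samples against 66, 95 and 130 in immature samples.

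A locus sum can hide contigs that disagree, and 9 of the 24 loci had several contigs, up to 5. In 7 of them the mature to immature ratio of all contigs lay on the same side of 1, and in 2, Ta12688 among them, it did not. Single contigs were tested in a limma fit over all 14936 contigs past the same filter, of which 27.5% were higher and 34.2% lower in mature nectaries.

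Of the 24 loci, 3 held a contig whose match is a different gene. In Ta12688, both contigs matching PAL2 rose, the main one 8.15-fold (means of 4229 in mature and 519 in immature nectaries, limma adjusted p = 1.8e-05), and a contig matching a transposable element gene (AT5G34851) was lower, at 42.3 in mature and 224 in immature nectaries. In Ta19737, 2 contigs matched 4CL1, 1 matched 4CL2 and 1 matched a MAP kinase kinase gene (AT1G51660), and all 4 were higher. In Ta02873, the contig matching AT5G59500 had means of 463 in mature and 370 in immature nectaries and was not called (log2 fold change 0.33, limma adjusted p = 0.0761). The other contig matched the microRNA gene MIR172E (AT5G59505) and had 68, 128 and 115 in mature samples against 1, 2 and 3 in immature samples. With the contigs of other genes left out, an alternative chosen after the data were seen, 11 loci were higher and 11 lower, and Ta02873 was the locus that lost its call (limma adjusted p = 0.0634). In that fit Ta12688 was 8.09-fold and Ta19737 7.16-fold higher, so the order of these loci changed.

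**Figure D5:**
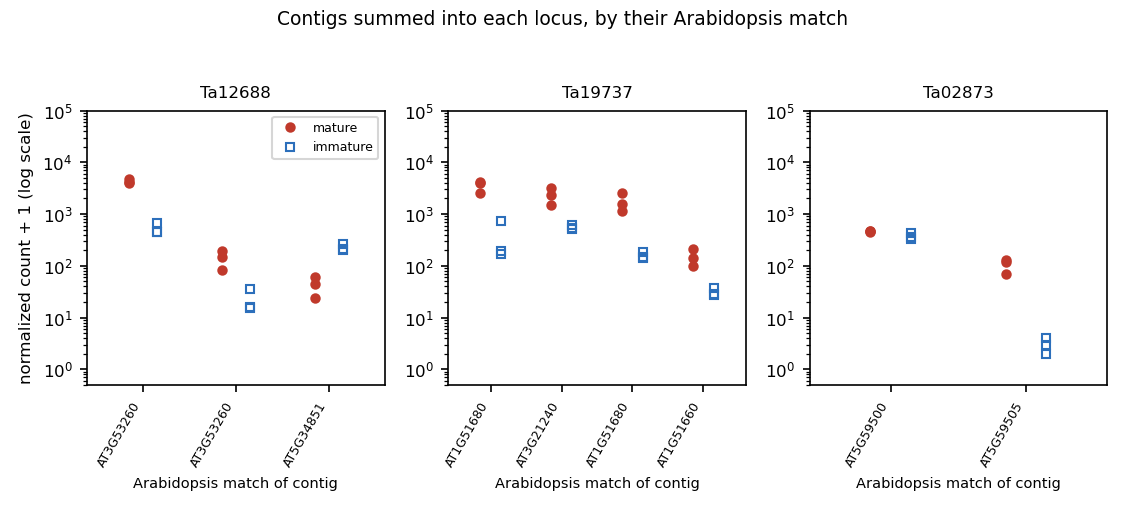
Normalised count (plus 1, log axis) of each contig summed into 3 of the loci, with mature samples as filled circles and immature samples as open squares and the Arabidopsis match of each contig on the horizontal axis. In Ta12688 the contig matching AT5G34851 is lower in mature nectaries while both contigs matching AT3G53260 are higher, and in Ta02873 the stages are far apart only in the contig matching AT5G59505.

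The plot of single contigs shows that the main contig sets the sum in Ta12688. Conversely, 3 contigs with a matching name lay outside the 24 loci, 2 of them in loci whose other contigs match other genes. Chalcone isomerase itself (AT3G55120), the enzyme after CHS, was present as 1 contig within Ta07874. It had 179, 222 and 212 in mature samples against 388, 330 and 597 in immature samples, a ratio of 0.466 (log2 fold change -1.06 ± 0.23, limma adjusted p = 0.00526). It went in the direction of CHS with a smaller fold change, a difference between contigs that was not tested.

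CAD5 (AT4G34230), which with CAD4 is a main lignin dehydrogenase of Arabidopsis stems, was present as 1 contig within Ta17654. It had 232, 235 and 245 in mature samples against 14, 13 and 9 in immature samples, 19.8-fold higher (log2 fold change 4.22 ± 0.27, limma adjusted p = 1.88e-05). The CAD5 contig passed the filter through its mature values alone, and the size of its fold change rests on low immature values. The CAD4 contig (AT3G19450) of the same locus was not called, with means of 172 in mature and 214 in immature nectaries (log2 fold change -0.33, limma adjusted p = 0.18). The 1.81-fold increase of their sum (limma adjusted p = 0.00109) was therefore carried by the CAD5 contig.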

How the data were processed

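RNA from 6 nectary samples was sequenced as paired 50-base reads on an Illumina HiSeq instrument. Per the methods of the study, the authors ran Trinity on each stage, added contigs from an older transcriptome of the species, assigned reads by blastn and normalised the counts by the upper quartile. The deposited values are scores in the sense that they are normalised counts rounded to whole numbers, so no count model was fitted. The deposited means, SDs, ratios and DESeq p-values of the authors were not used, nor was a second table whose contigs are all in the first. Which release of the draft genome was used is not stated. No sequence of the loci was available for printing.

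Contigs were summed per locus over 16074 contigs, 617 without a locus being left out. Log2(sum + 1) was fitted in limma 3.58.1 under R 4.3.3, with the variance prior following the mean, for loci whose mean reached 100 in one stage or both, with Benjamini-Hochberg adjustment over all of them and 2-fold as a second rule. Of the 24 loci, 2 are counted in the totals but not reported here. The same fit over contigs and the sum over matching contigs only were added after the data were seen. Python 3.11.15 with pandas 2.3.3, numpy 2.4.6 and matplotlib 3.10.9 gave tables and figures, and the fit was tested on simulated data. The loci and gene lists were chosen with earlier results of these data known. Per-sample values are given for the reported entry, monolignol and flavonoid loci, for any locus whose mean reached 1000 in one stage or both and for the leading loci of the other groups, and up to 4 called loci of the wider list by smallest adjusted p are named. Approximate reads were taken from the spacing of low values, at 0.6268 to 1.9446 normalised counts a read. Normalised totals were 14675385 to 22709136 in mature and 10572166 to 14213116 in immature samples. Alternatives were other pseudocounts, filters, scalings, contig choices and moderation, voom, a replicate block and leaving out each sample.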

Additional observations from a re-analysis of the deposited data

How the results depend on the processing

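Under 19 alternatives, 22 of the 24 loci kept their call and direction wherever they were tested, and no called one changed direction. The exceptions were Ta11343, the PAL1 match, also lost with median-of-ratios scaling (limma adjusted p = 0.0578) and without the trend (0.0538), and Ta02873, lost with its most abundant contig alone (0.0664). With a mean of at least 500 required, fewer loci were tested. Then 5 loci were lower, 5 lower by more than 2-fold, 15 called and 15 free of overlap, 19 neighbouring loci were called, and the median log2 fold change was 1.41. Leaving out 1 sample gave 12 higher and 10 to 11 lower loci, 9 to 10 higher and 10 to 11 lower by more than 2-fold, 29 to 34 neighbouring loci called and a median of 0.09 to 0.34. Among neighbouring loci, Ta17654 reversed when only its most abundant contig was used (log2 fold change -0.33, limma adjusted p = 0.162). Rescaling to the total without ribosomal RNA and organelles moved the median of all loci to -0.25, with 12 loci higher and 11 lower, and median-of-ratios scaling moved it to 0.03, with 12 higher and 10 lower.

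The labels number the pools 1 to 3 in each stage but do not say that a number marks a shared batch. The numbers were therefore not taken as pairs. Deviations of same-numbered pools correlated at -0.07, 0.01 and 0.20, beside -0.18 to 0.19 for pools of different numbers. With the number as a replicate block, 12 loci were higher and 11 lower, and 37 neighbouring loci were called, beside 33 without it. Loci near 0 in mature nectaries rest on few reads, so their fold changes depend on low values, and related genes may share reads.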

Other observations

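The 4CL1 and 4CL2 contigs of the nectary assembly came from one assembled component, and the split of reads among these contigs varied by sample. The sum of the main 4CL1 contig of Ta19737 and the 4CL2 contig of Ta21384 was 9089, 5202 and 9108 in mature samples against 977, 933 and 2622 in immature samples. The other 2 contigs of that component, which also matched 4CL1 and 4CL2, summed to 2653, 5761 and 3911 in mature samples against 679, 759 and 684 in immature samples. Each sum thus joined a 4CL1 and a 4CL2 contig, and their ratio does not compare 4CL1 with 4CL2. The ratio of these sums was 3.43, 0.903 and 2.33 in mature samples and 1.44, 1.23 and 3.83 in immature samples. The lowest ratio belongs to mature sample 2, which had the largest share of ribosomal RNA (62.6%), and the highest to immature sample 3, which had the smallest (12.4%). These contigs were chosen after their values were seen, and the part of the ribosomal share in this split was not tested. Both sums were higher in all mature than in all immature samples.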
